A study of Homo sapiens with 2 samples.

Results

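Genes of the azurophil granule, the first storage granule that a developing neutrophil makes, and of cystatin F were followed in RNA-seq of HAL-01, a human line whose labels call it a leukaemia of B cell precursors. The genes were CTSG, ELANE, MPO, LYZ and CST7, with PRTN3, AZU1, SRGN and CFD to be added where a file lists them. None of these last 4 had a value in either library, so they were not analysed here, and 5 of the 9 named genes remained, among 10548 genes listed in both libraries. The study holds 2 libraries, Control and AG, 1 from each culture, and cells of the latter were kept for 24 h with 0.8 mM of 1,5-AG, that is 1,5-anhydroglucitol, a polyol that resembles glucose. No label states what the Control culture was given. The comparison asks how expression in AG differed from Control. Each group has 1 library, so differences have no replicate check and no p-values are printed.

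Azurophil granules are filled during the promyelocyte stage. Their neutral serine proteases, among them cathepsin G (CTSG) and neutrophil elastase (ELANE), are made as inactive precursors, activated by the cysteine protease cathepsin C and packed onto the proteoglycan serglycin (SRGN). Myeloperoxidase (MPO) makes hypochlorous acid from hydrogen peroxide, and lysozyme (LYZ) cuts bacterial cell walls and is also made by monocytes and macrophages. Cystatin F (CST7) is an inhibitor that reaches the endolysosomal system and there blocks cysteine cathepsins, including cathepsin C.

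FPKM counts fragments per gene length and per library total, so levels can be set side by side between genes on a per-length scale. The steps between low FPKM values put the library totals at 16240451 fragments (Control) and 14857372 (AG). With these totals, whole fragment numbers behind each of the 5 genes were recovered by a search for 1 gene length that fits both FPKM values. Intervals below are exact 95% Clopper-Pearson intervals from those fragment numbers. They cover counting error only, because fragments are not independent molecules and cultures were not repeated. A gene was called lower or higher from 1.5-fold on the log2(FPKM + 1) scale, which understates changes of low genes. The 5 genes were chosen by their FPKM values in this same comparison, so their differences are descriptions.

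The label was set beside genes of its lineage, few of which were listed in both libraries. Of 14 genes of B cell precursors, the 2 listed in both libraries, CD79A and EBF1, summed to 0.469 FPKM in Control against 0.404 in AG. A further 5 were listed in Control only, the highest being IGLL1 at 0.137 FPKM, and 2 in AG only, the higher being VPREB3 at 0.237. The other 5 had no value in either library, which is not read as absence of expression. The 5 genes, CST7 included, summed to 880.3 and 342.5 FPKM, most of it CTSG. Those 5 genes were chosen by their values, so the lineage is not settled by these sums, and HAL-01 is used below as a label only.

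CTSG had by far the highest level of the 5. RefSeq promoter windows were available here for 4 of the named genes, and of these only CTSG had a value. The CTSG window, 250 bases before to 50 bases after the start annotated in RefSeq, is shown because CTSG carried most of the difference between the libraries. It lies at chr14:24576201-24576500 of GRCh38.p14 on the minus strand, and capitals mark the letters that matched a searched motif.

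CTSG: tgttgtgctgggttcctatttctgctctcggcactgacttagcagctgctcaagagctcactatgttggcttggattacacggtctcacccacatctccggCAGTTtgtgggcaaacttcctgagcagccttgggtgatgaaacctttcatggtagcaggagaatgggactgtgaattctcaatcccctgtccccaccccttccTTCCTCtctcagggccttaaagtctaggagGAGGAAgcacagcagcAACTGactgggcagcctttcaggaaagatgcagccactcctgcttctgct

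The searched letters, on both strands, were GAGGAA for ETS factors such as PU.1, AACNG for MYB, TTGCNNAA for C/EBP factors, TGTGGT for RUNX factors and, for a TATA box, TATAAA. The CTSG window held 2 matches of GAGGAA, at -46 to -41 on the opposite strand and at -16 to -11 on the gene's strand, with position 0 at the annotated start. It also held 2 matches of AACNG, at -149 to -145 on the opposite strand and at 0 to 4, and none of the matches overlapped. Of 35116 promoter windows of this length, 27.9% held GAGGAA and 77.2% held AACNG. The letters searched for C/EBP, RUNX and the TATA box, present in 10.5%, 13.1% and 11.5% of windows, were not found in this one. These matches are descriptions of sequence and not evidence of binding.

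The ratios of the 2 granule proteases CTSG and ELANE differed in these libraries. CTSG (ENSG00000100448, chromosome 14, 24573522 to 24576260, minus strand) had 742.9 FPKM in Control against 193.9 in AG, from 16505 and 3942 fragments. It stood at rank 11 of 13342 listed genes in Control and at rank 58 of 13351 in AG. The Control level was 3.83 times the AG level (95% counting interval 3.70 to 3.97), a log2 ratio of -1.93. In this bulk RNA, fewer cells with the transcript and less transcript per cell cannot be told apart.

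ELANE (ENSG00000197561, chromosome 19, 851014 to 856247, plus strand), a serine protease of the same granule, had 47.6 FPKM in Control against 41.8 in AG, from 794 and 639 fragments. Its ratio of AG to Control was 0.880 (0.791 to 0.978), within 1.5-fold, and its rank moved from 356 to 439. The counting intervals of CTSG and ELANE did not overlap. Both genes were chosen by their values and the intervals hold counting error only, so this describes these libraries and tests nothing. CTSG transcript was 15.6 times the ELANE level per length in Control and 4.64 times in AG.

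MPO (ENSG00000005381, chromosome 17, 58269856 to 58280935, minus strand), the peroxidase, was low in both libraries, at 4.75 FPKM in Control against 1.70 in AG. These values rested on 272 and 89 fragments, and the ratio of AG to Control was 0.358 (0.278 to 0.456). MPO thus lay on the side of CTSG, with a log2 ratio of -1.09, at a level far below both proteases. With a pseudocount of 5 FPKM its log2 ratio was -0.54 and it was no longer called lower.

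LYZ (ENSG00000090382, chromosome 12, 69348341 to 69354234, plus strand) went the other way. It had 75.6 FPKM in Control against 103.6 in AG, from 2117 and 2654 fragments, a ratio of 1.37 (1.29 to 1.45) that did not reach 1.5-fold. Its rank moved from 208 to 129. CTSG was 9.83 times the LYZ level per length in Control and 1.87 times in AG. LYZ overlaps an antisense gene, AC020656.1, and no label states whether counting used strand, so reads of the pair cannot be told apart. The 4 other genes had no overlapping gene in the annotation.

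CST7 (ENSG00000077984, chromosome 20, 24949230 to 24959928, plus strand), the protease inhibitor, had 9.47 FPKM in Control against 1.44 in AG. Its AG value rested on 19 fragments against 137 in Control, so its ratio of 0.152 had the widest relative interval of the 5 genes (0.0886 to 0.246). Its rank moved from 2103 to 5245. The inhibitor was lower together with CTSG, although its interval lay wholly below that of CTSG, which again is a description of these libraries only.

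**Figure D1:**
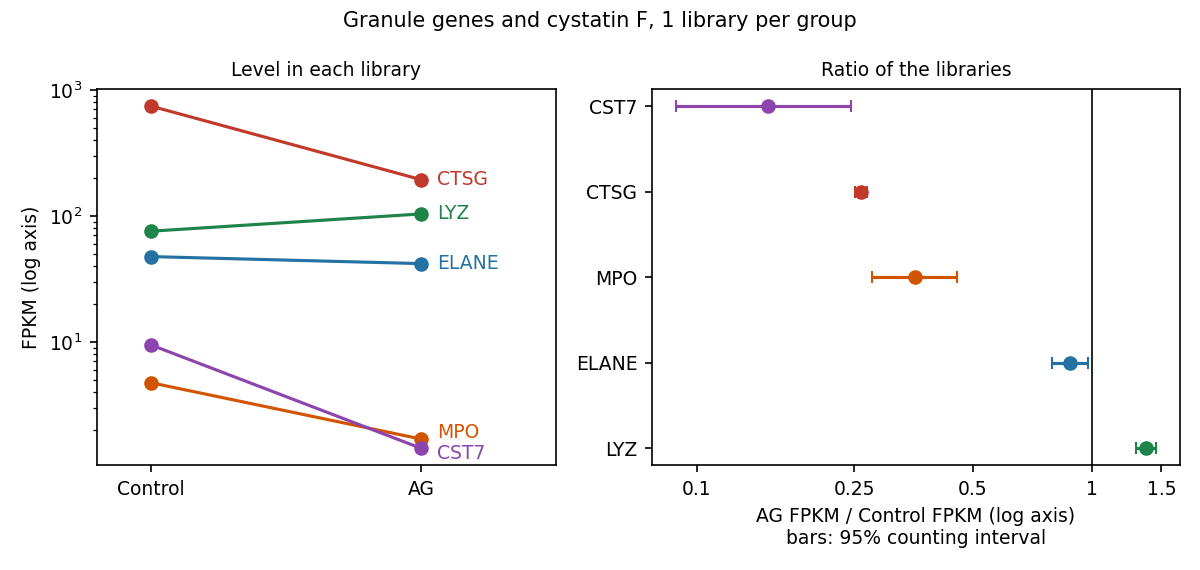
Levels of the 5 genes in FPKM in the Control and AG libraries (left, log axis) and the ratio of AG to Control (right, log axis) with exact 95% counting intervals as bars, 1 library per group. CTSG, MPO and CST7 lie at ratios from 0.152 to 0.358, ELANE lies at 0.880 and LYZ at 1.37.

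Of the 5 genes, 3 were called lower, CTSG, MPO and CST7, and 2 were within 1.5-fold, ELANE and LYZ. Across all 5528 genes that both libraries list and that average 1 FPKM or more, 3.33% were called lower and 3.6% higher, with a median log2 ratio of -0.03. At 2-fold, which CTSG, MPO and CST7 also passed, 0.886% of genes were lower and 1.18% higher. Since these genes were picked for their values in this comparison, nothing is read from the count. By log2(FPKM + 1) ratio, CST7 was at rank 2 from the lowest of all 5528 genes, CTSG at rank 5 and MPO at rank 40. These ranks depend on the added 1 FPKM, and by the plain ratio the 3 genes were at rank 9, 25 and 54. By log2(FPKM + 1) ratio, ELANE was at rank 1225 and LYZ at rank 5232.

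As a description of these 2 libraries, each gene was also set beside the genes nearest to it in level. The 5 genes were chosen by their values in this comparison, so their place among other genes tests nothing. CTSG lay below all 200 genes nearest to it, which span a wide range of levels. Among the 200 genes nearest to CTSG in mean FPKM, from 75.9 to 1857 FPKM, the middle 95% of log2 ratios lay between -0.46 and 0.56, and the lowest was -1.38. CST7, at -2.10, lay below the lowest of its own 200 nearest genes, which was -0.80. MPO at -1.09 lay outside the middle 95% of its 200 nearest genes (-0.85 to 0.80) but not below their lowest, -1.37. ELANE at -0.18 and LYZ at 0.45 lay inside the middle 95% of theirs, which ran from -0.40 to 0.47 and from -0.46 to 0.57.

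**Figure D2:**
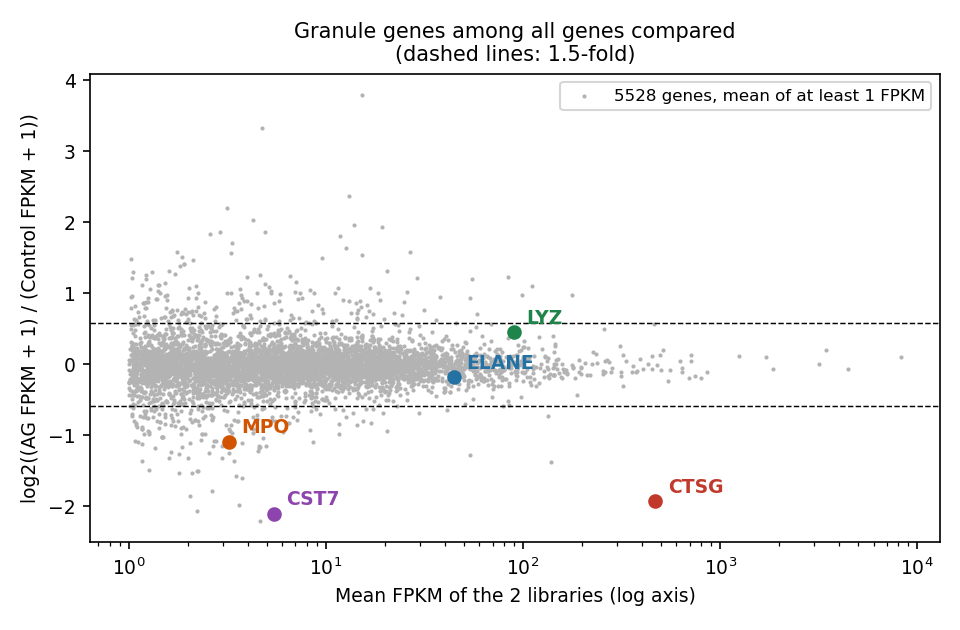
Mean FPKM of the 2 libraries (x, log axis) against the log2 ratio of AG to Control after adding 1 FPKM (y) for 5528 genes in grey, with the 5 genes in colour and dashed lines at 1.5-fold. CTSG, at -1.93, lies below all of the 200 genes nearest to it in mean level, CST7 and MPO lie below the lower line, and ELANE and LYZ lie between the lines.

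The make-up of the summed FPKM of the 5 genes, CST7 included, therefore differed between the libraries. CTSG made up 84.4% of the summed FPKM of the 5 genes in Control and 56.6% in AG. LYZ made up 8.59% and 30.2%, and ELANE 5.40% and 12.2%. The ELANE share was larger in AG although its FPKM was lower, 41.8 against 47.6 in Control, because the sum itself was smaller. Without CTSG the other 4 genes summed to 137.4 FPKM in Control against 148.6 in AG, so the drop in the sum came from CTSG. MPO held 0.539% and 0.496%, and CST7 1.08% and 0.419%.

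Other contents of azurophil granules gave no call. Of 23 such genes, 10 were listed in both libraries and 8 averaged 1 FPKM or more, and all 8 differed by less than 1.5-fold (median log2 ratio -0.07, and -0.03 over all genes). Of all 5528 genes 93.1% did so, so nothing particular to these contents is read from the count. CD63, a tetraspanin of the granule membrane, had 102.3 FPKM in Control against 94.5 in AG. RNASE3, eosinophil cationic protein, had 16.2 and 15.9, and its close relative RNASE2 could share reads with it. The lysosomal hydrolases that these granules also store included GUSB, a glucuronidase, at 34.0 and 36.3 FPKM and GAA, a glucosidase, at 25.2 and 26.3. The members farthest from a ratio of 1 were FUCA1, a fucosidase, at 1.43 (1.09 to 1.87), and the phospholipase PLD1 at 0.771 (0.681 to 0.873). BPI, a protein that binds endotoxin, was near 0 at 0.0496 and 0.0813 FPKM, and the defensin DEFA4 was listed in Control only, at 0.105.

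Contents of the granules made later in neutrophil development could mostly not be compared. Of 21 genes of specific and gelatinase granules, 14 had no value in either library, which is not read as absence of expression, 6 were listed in both libraries and 2 averaged 1 FPKM or more. SLPI, an inhibitor of elastase and cathepsin G, had 29.3 FPKM in Control against 21.9 in AG, a ratio of 0.747 (0.619 to 0.899). CYBB, the catalytic subunit of the phagocyte oxidase, had 1.25 and 2.74 FPKM and was called higher, as were 3.6% of all genes. Nothing is read from a count of 2, and the call of CYBB was lost at 2-fold. The gelatinase MMP9 had 0.0264 and 0.0288 FPKM.

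The machinery that sorts and releases granule proteins gave no call either. Of 27 genes, 17 had no value in either library and 9 were compared, and all 9 were within 1.5-fold, against 93.1% of all genes (median log2 ratio 0.07). LYST, whose loss gives the giant granules of Chediak-Higashi syndrome, had 68.7 FPKM in Control against 79.5 in AG. AP3B1, an adaptor subunit for sorting of elastase, had 30.7 and 26.4. HAX1 and G6PC3, loss of which causes severe congenital neutropenia, had 34.8 and 40.8 FPKM and 11.5 and 11.0 FPKM, and VAMP7, a protein of vesicle fusion, had 32.6 and 39.6. Cathepsin C, the activator of the serine proteases, was not analysed here.

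CST7 was the only one of the cystatins compared that was called. Of 11 cystatin genes 3 averaged 1 FPKM or more, and 1 was called lower, against 3.33% of all genes. CST7 was chosen by its values in this comparison, so nothing is read from this count. CSTA, the cytosolic stefin A, had 64.7 FPKM in Control against 57.2 in AG, a ratio of 0.884 (0.817 to 0.955). CSTB, stefin B, had 18.5 and 20.8, a ratio of 1.13 (1.04 to 1.23). The 2 stefins act in the cytosol and both stayed within 1.5-fold, while CST7 had a ratio of 0.152.

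Cathepsins, the kind of protease that cystatin F inhibits, were only partly covered. Of 14 genes, 3 were compared, with 1 called higher, 0 lower and 2 within 1.5-fold (median log2 ratio 0.36, and -0.03 over all genes). Over all genes 3.6% were higher, 3.33% lower and 93.1% within, and nothing is read from a count of 3. CTSD, an aspartic protease outside the reach of cystatins, was the higher one, at 7.08 FPKM in Control against 12.3 in AG. CTSB had 5.95 and 7.91 FPKM. CTSV, a protease reported to process cystatin F, had 1.26 and 1.09.

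Inhibitors of granule serine proteases had 2 of 12 members compared, and both were within 1.5-fold, as were 93.1% of all genes. SERPINB8 had 28.5 FPKM in Control against 22.0 in AG, a ratio of 0.774 (0.729 to 0.821). SLPI, given above, had a ratio of 0.747. Of 12 genes of lymphoid and mast cell granules 1 was compared, NKG7, a membrane protein of cytotoxic granules. It had 17.2 FPKM in Control against 10.3 in AG, a ratio of 0.597 (0.483 to 0.736). NKG7 was called lower, as were 3.33% of all genes. None of the granzymes had values in both libraries, and GZMM was listed in AG only, at 0.0712 FPKM. The calls of NKG7, CYBB and CTSD ended with a pseudocount of 5 FPKM.

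**Figure D3:**
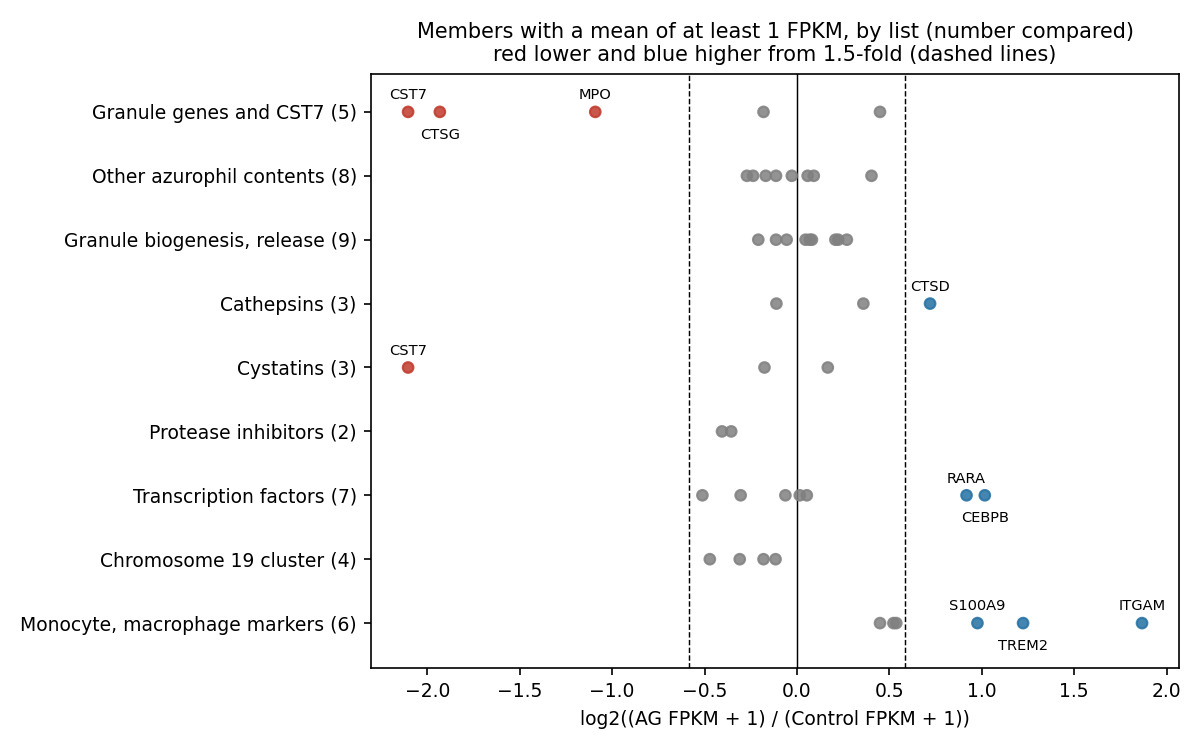
Log2 ratio of AG to Control after adding 1 FPKM (x) for each gene averaging 1 FPKM or more, in 9 lists (rows, with the number of genes compared), dashed lines at 1.5-fold, red for lower and blue for higher. All 8 other azurophil contents and all 9 genes of granule sorting and release lie between the lines, and the red points are CST7, CTSG and MPO, with CST7 drawn in both lists that hold it.

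Among transcription factors of granule genes, CEBPB and RARA were higher in AG. Of 18, 7 were compared, with 2 called higher, 0 lower and 5 within 1.5-fold (median log2 ratio 0.02). Over all genes 3.6% were called higher and 3.33% lower, with a median of -0.03, and nothing is read from a count of 7. MYB, a factor of proliferating progenitors, had 99.2 FPKM in Control against 69.3 in AG, a ratio of 0.699 (0.675 to 0.722), short of the threshold on the log2(FPKM + 1) scale at -0.51. CEBPB, a C/EBP factor of later myeloid stages, had 4.25 and 9.63 FPKM, a ratio of 2.26 (1.82 to 2.82). RARA, a retinoic acid receptor that acts in granulocyte maturation, had 4.71 and 9.79, a ratio of 2.08 (1.83 to 2.37). On the log2(FPKM + 1) scale RARA, at 0.92, was short of 2-fold.

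The other factors compared were within 1.5-fold. RUNX1 had 20.4 FPKM in Control against 19.4 in AG, and its partner CBFB had 43.0 and 43.4. IRF8, a factor of monocyte fate, had 188.8 and 195.9, and LMO2, a factor of stem and progenitor cells, had 47.5 and 38.3. CEBPA and SPI1, which encodes PU.1, were not analysed here.

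Some markers of mature monocytes and macrophages were higher in AG. Of 16 markers, 6 were compared, with 3 called higher, against 3.6% of all genes, 0 lower, against 3.33%, and 3 within 1.5-fold (median log2 ratio 0.76, and -0.03 over all genes). The 3 within were ITGAX, CD36 and LYZ, which is in both lists. LYZ was chosen by its values and the marker list with earlier results of these data known, so nothing is read from the count. The 7 listed in both libraries, LYZ included, summed to 199.3 FPKM in Control against 370.4 in AG. Each of the 6 compared had a ratio above 1, and nothing is read from this count either. ITGAM, the integrin CD11b, had 1.55 and 8.30 FPKM, S100A9 had 66.3 and 131.4 and TREM2 had 49.6 and 117.2. Other markers of the list were near 0. FCGR3A, CD68 and CD163 were listed in AG only, at 0.346, 0.0622 and 0.0463 FPKM, and S100A12 had 0.127 in Control against 0.139 in AG. CD14 and CSF1R, which define monocytes, were not analysed here, and the files list no zeros. The part of these markers in the difference of CTSG, MPO, CST7 and LYZ was not tested.

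Of other granule-bearing cells few markers could be compared. Of 11 mature neutrophil markers 1 was compared, CXCR2, a chemokine receptor, at 14.2 FPKM in Control against 17.3 in AG. Of 10 eosinophil, basophil and mast cell markers 1 was compared, GATA2, a factor that progenitors also express, at 10.5 and 8.42. The 4 compared of 13 promyelocyte and progenitor markers were CTSG, MPO, ELANE and MYB, so this list adds little to the values above.

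The genes around ELANE that could be compared were within 1.5-fold, as were ELANE and 93.1% of all genes, so nothing particular to the region is read from this. ELANE lies on chromosome 19 beside AZU1, PRTN3 and CFD. Of 12 genes of that region, ELANE included, 4 were compared, all within 1.5-fold (median log2 ratio -0.25, ELANE included). MED16, a Mediator subunit, had 12.9 FPKM in Control against 10.2 in AG, and R3HDM4 had 16.8 and 15.4. PALM, at 1.83 and 1.04 FPKM, had a ratio of 0.569 (0.425 to 0.756) and a log2 ratio of -0.47, and it was called lower only with a pseudocount of 0.1 FPKM. On chromosome 14, CTSG was the only one of 4 clustered protease genes with values.

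Few abundant genes had a ratio like that of CTSG. Of genes averaging 5 FPKM or more, the 3 nearest in plain log2 ratio over these 2 libraries were MLC1 at 199.5 FPKM in Control against 76.2 in AG, TXNIP at 76.8 and 31.1, and RFX8 at 12.1 and 5.11. MLC1 encodes a membrane protein and TXNIP an arrestin-related protein that restrains glucose uptake. Their distances from CTSG, 0.55, 0.63 and 0.70 on the log2 scale, show that none of the 3 shared its ratio closely. Nothing on shared control follows from a likeness over 2 libraries.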

How the data were processed

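Per the labels' protocols, mRNA libraries came from a stranded TruSeq kit. The authors deposited FPKM, 1 value per gene and library. The submitters' processing notes name hg38 as the build and HISAT2, HTSeq, Cufflinks and Trimmomatic as tools. No version, annotation release, strand setting or filter is stated in them. The rule for the 5 genes, the gene lists and the tests were chosen with earlier results of these data known. Genes were matched by Ensembl ID to GENCODE 29 (GRCh38), which held 97.1% of 16145 IDs, and promoter windows are from RefSeq. FPKM times exon length of single-transcript genes was whole, within 0.01, for 88.4% of 5315 genes in Control and 88.1% of 5259 in AG, which set the library totals. Fragment pairs are the whole numbers that give both FPKM values of a gene at 1 length. Where several lengths fitted, the one nearest the GENCODE exon length was taken.

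Changes were computed as the log2 ratio of AG to Control after adding 1 FPKM to each, for genes that both libraries list and that average 1 FPKM or more. Genes listed in 1 library only, 2794 in Control and 2803 in AG, were neither set to 0 nor compared. Named were the granule genes, list members with a mean of at least 10 FPKM or past 1.5-fold, the highest member of a list and the 3 genes nearest to CTSG in ratio; some further members were chosen after their values were seen. No test between conditions and no count model was used with 1 library per group. Protein sequences were not analysed here, and some members of the lists are not reported here and were left out of their counts. The steps were tested on simulated data. Alternatives were other pseudocounts, filters, scalings and a 2-fold threshold. Tables were made with pandas 2.3.3 and numpy 2.4.6 under Python 3.11.15, intervals with scipy 1.17.1 and plots with matplotlib 3.10.9.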

Additional observations from a re-analysis of the deposited data

How the results depend on the processing

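No paired analysis was possible because each group has 1 library. Of 99 values recomputed under the alternatives, 84 stayed within their counting interval or within 1.5 times the count and 15 did not. The 84 include counts of 0 that stayed 0. They also include the granule genes called lower, which went from 3 to 2 with a pseudocount of 5 FPKM. That count was also 2 among genes averaging 5 FPKM or more, where MPO, with a mean of 3.22 FPKM, was left out. Only the log2 ratios have a direction, and 0 of them changed it. A pseudocount added to both values cannot change it, and the scalings, 0.975 and 0.995, were near 1, so nothing is read from this. Scaling by the median of ratios or to a common total moved no value past these limits. With a pseudocount of 0.1 FPKM the log2 ratio was -1.43 for MPO and -2.64 for CST7, and 1 gene of the chromosome 19 region, PALM, was past 1.5-fold. With 5 FPKM it was -0.54 for MPO and -1.17 for CST7, because the pseudocount weighs most on low genes, and 0 genes were past the threshold among the later granule contents, the cathepsins and the lymphoid and mast cell genes. At 2-fold these 3 lists also had 0 genes and the transcription factors had 1. Among genes averaging 5 FPKM or more the later granule contents had 0, since CYBB was left out. As a share of recovered fragments, not of FPKM, CTSG made up 83.3% of the 5 genes in Control and 53.7% in AG. The depth limits CST7 most, with 19 fragments in AG. The spread between cultures is unknown.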

Other observations

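Genes near the 5 were compared after the values were seen. Of genes within 500 kb, 5 were compared around CTSG, 15 around ELANE, 5 around MPO, 6 around LYZ and 2 around CST7. Among them 0 were past 1.5-fold in either direction. Since 93.1% of all genes were within 1.5-fold, nothing particular to these regions is read from this. Around CTSG the log2 ratios ran from -0.07 to 0.14, with the telomere protein gene TINF2 at 3.68 FPKM in Control and 3.85 in AG. Around CST7 they were -0.02 for PYGB, a glycogen phosphorylase, and 0.06 for APMAP. Around MPO they ran from -0.39 to 0.20, and around LYZ from -0.19 to 0.05.

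Some genes of granule biology were listed in AG only and had no ratio. STXBP2, which acts in granule release, had 17.7 FPKM in AG, and CEBPE, the C/EBP factor of specific granule formation, had 1.70. CST6, a cystatin, had 0.682 and PGLYRP1, a protein of specific granules, had 0.380. These genes had no value in Control, and such a gap is not read as absence of expression.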
